A study of Mus musculus with 22 samples.

Results

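The comparison described here is the interaction of strain with muscle: the SJL minus Balb difference in leg muscle minus the same difference in extraocular muscle (EOM), the small muscles that move the eye. It asks which strain effects were present in leg and spared the eye muscle, and which occurred in the eye muscle alone. All 22 of 22 arrays entered it, and it was repeated on the 18 arrays left without the 4 first replicates at 10 months. Each array gives one intensity per probe set, the set of short probes that reports a transcript. A positive interaction means that SJL stood higher relative to Balb in leg than in EOM, and a negative one the reverse.

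The mice were of 2 inbred strains, SJL and Balb, taken at 10 or at 12 months of age (the older group is labelled 1 year), and RNA came from leg or from eye muscle. The 8 groups were Balb leg, SJL leg, Balb EOM and SJL EOM at each age, with 3 arrays in each except the 12-month EOM groups, which had 2 each. The groups differ in strain, muscle and age only as far as the labels say. Neither the sex, the substrain, the leg muscle sampled nor any pooling of animals is stated, and the labels do not say that replicates came from separate animals, so p-values measure the spread between these samples, which may be technical. The array carries no probe set named Dysf, the dysferlin gene, so the known SJL allele could not be checked against the labels.

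SJL mice are known to carry a mutation of dysferlin, a membrane protein that reseals tears in the muscle fibre surface, and develop a slowly progressive dystrophy of limb and trunk muscle with fibre degeneration, regeneration and macrophage infiltration. Extraocular muscle is known for its unusual mixture of fibre types, including slow, multiply innervated and embryonic myosin fibres, and for being little affected in several muscular dystrophies. The 2 strains also differ at many loci that have nothing to do with dysferlin, so a strain difference in these data is a difference between inbred backgrounds.

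The tissue labels were borne out by marker genes. Embryonic myosin Myh3, which adult EOM keeps, was at 175 to 727 in leg and at 5892 to 17488 in EOM, and Hoxc9, a homeobox gene of the hind body, was at 815 to 1301 in leg and at 9.4 to 249 in EOM. Muscle creatine kinase (Ckm) was at 10007 to 63428 in leg and at 9103 to 38442 in EOM. The 4 first replicates at 10 months stood apart: their signal ratio between the 3′ and 5′ probe sets of beta-actin, a measure of RNA integrity, was 5.05 to 53.7, against 0.847 to 1.93 on the other 18 arrays. There is 1 such array in each 10-month group. The same ratio for Gapdh was 2.17 to 19.9 on these 4, but 4.66 and 6.71 on the other two SJL EOM arrays at 10 months, which were kept, against 0.0534 to 1.54 on the other 16. The 18 arrays thus hold high values of this ratio in 1 group. Low values lay mostly in another: SJL leg at 12 months read 0.0797, 0.0789 and 0.0534. Balb leg at 12 months read 0.0976, 1.44 and 0.706. On the 12-month arrays alone, which hold none of the high ratios, 56 probe sets passed the interaction. Of these, 44 were among the 156 that passed on the 18 arrays. The 12-month arrays are part of the 18, so this overlap is partly built in. Results are therefore given on all 22 arrays and on the 18. The part of RNA quality in any one result was not tested.

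A small number of strain differences were unequal in the 2 muscles. On 22 arrays 8 of 8695 tested probe sets (0.092%), from 6 genes, passed the interaction test (limma, Benjamini-Hochberg adjusted p under 0.05, here called passing); all 8 were positive, and 404 (4.65%) had an unadjusted p under 0.05. With quantile normalization of the arrays 11 passed, 9 positive and 2 negative. Only 1 Krt6a probe set of the 8 passed whichever single array was left out: leaving out Balb EOM replicate 2 or SJL EOM replicate 1 at 12 months left 1 passing in each case, with adjusted p of 0.0715 to 0.0925 for the other 7. On 18 arrays 156 (1.79%) passed, 90 positive and 66 negative, and all 8 were among them; without SJL EOM replicate 1 at 12 months the count was 91. They fall into classes by where the strain difference itself passed. In leg only, SJL was higher for 49 probe sets and lower for 24; in EOM only, it was higher for 27 and lower for 31. A further 10 passed in both muscles in one direction but with unequal size, 13 passed in both in opposite directions, and 2 passed in neither. For 40 of the 49 and 23 of the 24 leg-only probe sets, the 95% interval of the strain difference in EOM lay wholly within 1 log2 unit of 0. The same held in leg for 27 of the 27 and 24 of the 31 EOM-only probe sets. The sign was the same on 22 arrays, of which the 18 are a part, for 155 of the 156.

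Read from the side of each muscle, the strain difference in leg passed for 123 probe sets on 22 arrays (1.41%; 0.736% higher and 0.679% lower in SJL), and 117 of these had the same sign in EOM. Of the 123, 41 also passed in EOM, 2 had a passing interaction, and for 36 the EOM interval lay within 1 log2 unit of 0. In EOM 81 passed (0.932%; 32 higher and 49 lower in SJL, 40 and 36 with arrays centred on their median, and 47 without Balb EOM replicate 2 at 12 months), 66 of them with the same sign in leg and 6 with a passing interaction. On 18 arrays 711 passed in leg (8.18%) and 718 in EOM (8.26%); 237 passed in both in one direction, and the interaction passed for 96 of the 711 and 81 of the 718. The remainder, whether or not they passed in both muscles, were not shown to differ between muscles.

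**Figure D1:**
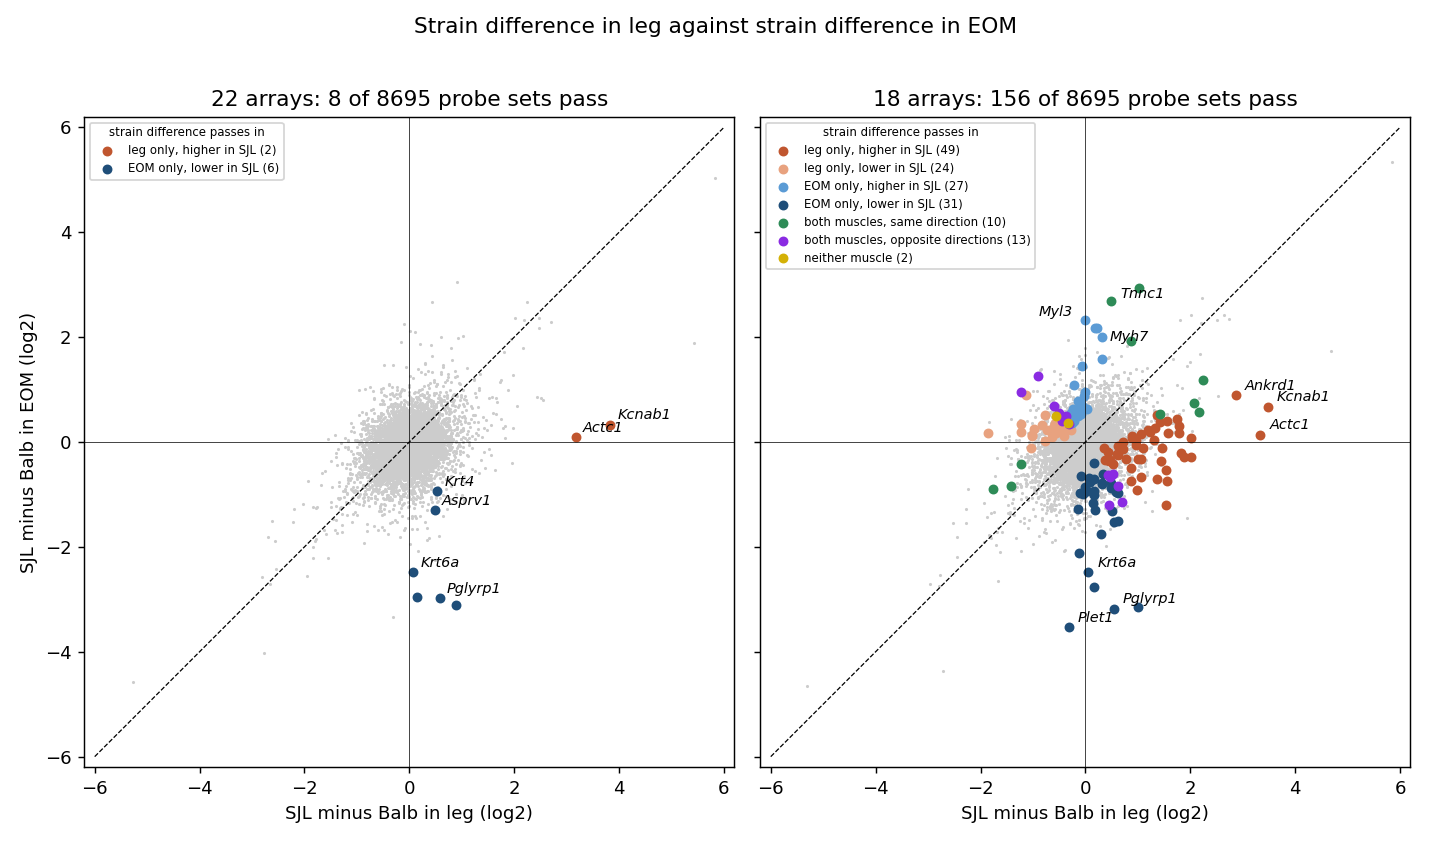
SJL minus Balb difference in leg (horizontal axis) against EOM (vertical axis), both in log2 units, for the tested probe sets on 22 arrays and on 18 arrays. Coloured points passed the interaction test (8 and 156), coloured by class, and the dashed line marks equal differences; most coloured points lie along one of the axes.

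Actc1, cardiac alpha-actin, which skeletal muscle makes in development and in regenerating fibres, was higher in SJL leg and similar between strains in EOM. Its intensity in Balb leg was 1249 at the lowest, 1598 at the median and 1878 at the highest of 6 arrays, and in SJL leg 9841, 13102 and 27128. The leg groups did not overlap. In EOM the 5 Balb arrays read 16281, 52683, 51669, 37490 and 31173 and the 5 SJL arrays 16562, 64380, 64571, 34707 and 32635, so the strains overlapped there and both stood far above Balb leg. The difference in leg was 3.18 log2 units and in EOM 0.09, with an interaction of 3.08 ± 0.52 (SE, 22 arrays; 95% interval 1.99 to 4.17, limma adjusted p = 0.0154, and 0.0717 to 0.0858 without any one of the 12-month EOM arrays). On 18 arrays the difference was 3.34 in leg and 0.14 in EOM (interval −0.12 to 0.40), with an interaction of 3.19 ± 0.16. A second Actc1 probe set, whose f suffix marks probes shared with related transcripts, gave 1.75 on 22 arrays (adjusted p = 0.182) and 1.95 on 18 (adjusted p = 2.52e-05).

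The Actc1 signal in EOM left little room for a rise. In Balb EOM it was 54.1% to 62.1% of the highest intensity on each of the 18 arrays, 0.76 log2 units below it, against a strain difference of 3.34 in leg. Whether saturation hides a strain difference in EOM was not tested. Among the 29 probe sets described most closely below (the 8 of the 22-array test and the largest on 18 arrays), 6 had less room in the other muscle than the size of the strain difference: Actc1 and 5 slow-fibre genes.

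Kcnab1, an auxiliary beta subunit of voltage-gated potassium channels, had a strain effect that passed in leg only, with no such limit. Its intensity was 87.2, 157 and 242 (lowest, median, highest) in Balb leg and 1439, 2149 and 5699 in SJL leg, with no overlap. In EOM the Balb arrays read 123, 87.5, 59.2, 40.6 and 41.3 and the SJL arrays 68, 186, 229.5, 40.6 and 41.8. Both strains' eye muscles were thus at or below the level of Balb leg, with overlapping values. On 22 arrays the difference was 3.83 in leg and 0.33 in EOM (interval −0.51 to 1.17). The interaction there was 3.50 ± 0.54 (interval 2.38 to 4.63, limma adjusted p = 0.0125). On 18 arrays the difference in leg was 3.48 and the interaction 2.81 ± 0.45 (limma adjusted p = 0.00366). These values leave a larger EOM difference than on 22 arrays. Kcnab1 alone of 16 tested potassium channel genes passed, on either set of arrays, and the median interaction of the list was 0.00 and −0.00, beside −0.00 and −0.01 over all 6454 genes.

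Ankrd1, a stress-responsive ankyrin repeat protein of the sarcomere, rose in SJL leg, and its interaction passed on 18 arrays only. Balb leg read 225 at the lowest and 359.5 at the median, and its highest value, 5104, was the first 10-month replicate, with the others at most 820. SJL leg read 1481, 3150 and 6644. Balb EOM read 277, 317, 138, 295 and 389 and SJL EOM 540, 373, 657, 489 and 569.6, mostly above Balb EOM but below every SJL leg value. On 18 arrays the difference was 2.86 in leg and 0.90 in EOM (interval 0.16 to 1.63, adjusted p = 0.131), with an interaction of 1.97 ± 0.47 (adjusted p = 0.041). On 22 arrays the interaction was 1.57 ± 0.87 (adjusted p = 1). Of 29 tested genes of regeneration and immature fibres, 6 were higher and 1 lower in SJL leg on 18 arrays (background 4.07% and 4.11%), and 4 were higher on 22 (0.736%). The interaction passed for 3 on 18 arrays (Actc1, Ankrd1 and the growth-arrest gene Gadd45a, all positive), against 62 positive of 6454 genes in all, and the list's median was 0.11. Summed over the 32 measured genes of the list, intensity was 60792 to 74798 in Balb leg and 75794 to 104763 in SJL leg, without overlap, and 75951 to 121805 in Balb EOM and 82254 to 131370 in SJL EOM, which overlapped. Myogenin (Myog) at −0.15, Myod1 at −0.11, embryonic Myh3 at 0.74 and perinatal Myh8 at −0.31 did not pass. Chrna1, the acetylcholine receptor subunit that denervated and immature fibres raise, passed in leg and in EOM on 18 arrays, with an interaction of 0.80 that did not.

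**Figure D2:**
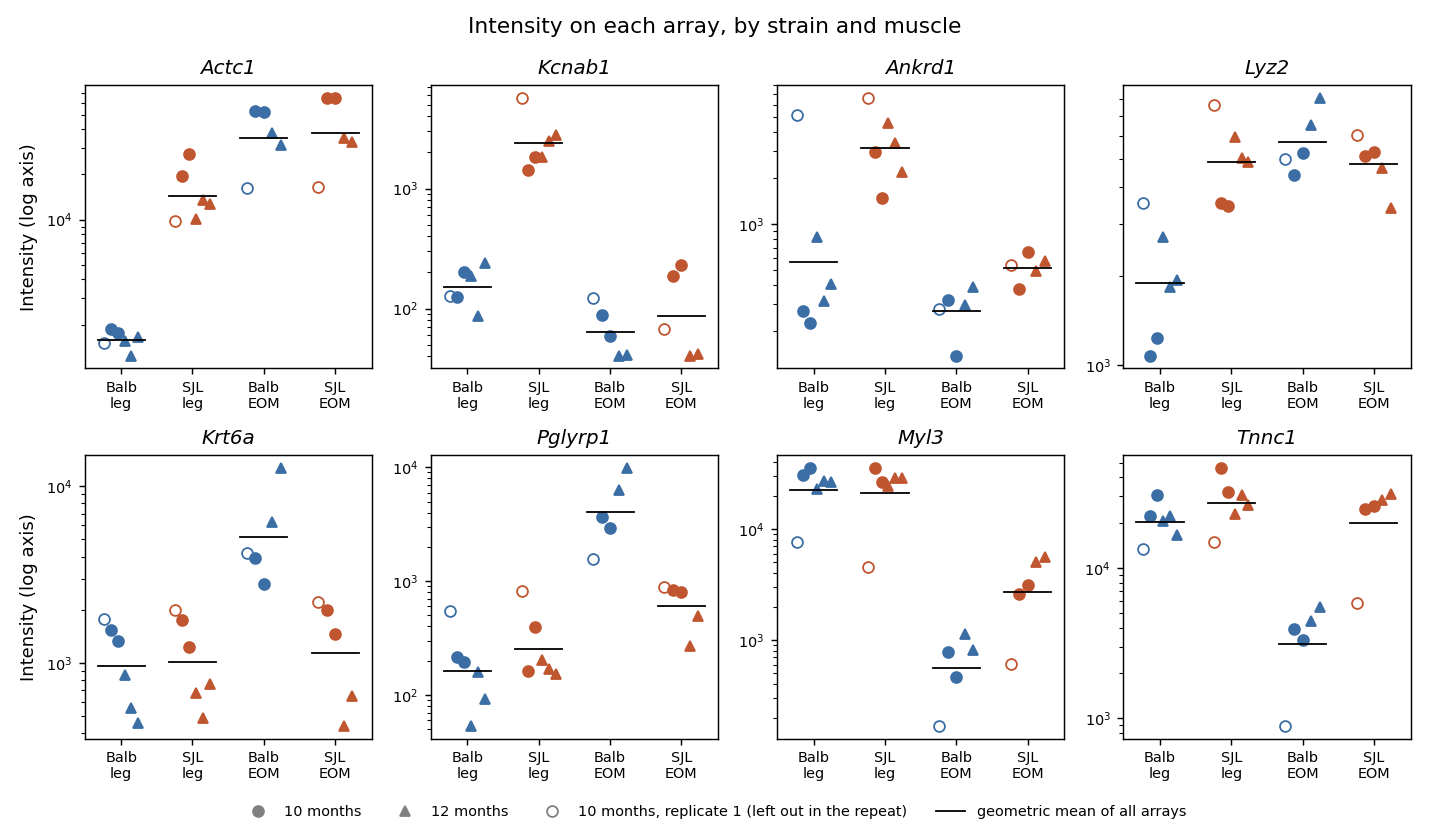
Intensity (log axis) on each array for 8 genes by strain and muscle; circles are 10-month and triangles 12-month arrays, hollow symbols the 4 first replicates at 10 months, and horizontal lines geometric means of all arrays of a group. Actc1, Kcnab1, Ankrd1 and Lyz2 separate the strains in leg on the 18 arrays, and Krt6a, Pglyrp1, Myl3 and Tnnc1 in EOM.

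Genes of macrophages and other myeloid cells rose in SJL leg, and 4 of them rose there by more than in EOM. On 18 arrays 13 of 32 tested macrophage and myeloid genes were higher in SJL leg (background 4.07% of probe sets) and none lower; in EOM 2 were higher (3.75%) and 1 lower (4.51%). The interaction passed for 4, all positive (background 1.04%): Lyz2, Lgals3, Ctss and C1qc. On 22 arrays 6 were higher in leg (0.736%) and none passed in EOM or in the interaction, where 8 had an unadjusted p under 0.05. The interaction was positive for all 32 on 22 arrays and for 31 on 18. Its median was 0.74 and 0.78, against −0.00 and −0.01 over all genes. In these whole-muscle samples more cells of a type and more RNA per cell cannot be told apart.

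Lyz2, the lysozyme of macrophages and neutrophils, shows the pattern array by array. Balb leg read 1079, 1891 and 3532 and SJL leg 3471, 4953 and 7587, nearly without overlap. Balb EOM read 4999, 4414, 5224, 6500 and 8050 and SJL EOM 6013, 5129, 5293, 4662 and 3396. Eye muscle of both strains thus stood at the level of SJL leg. The interaction was 1.81 ± 0.18 on 18 arrays (interval 1.42 to 2.20, limma adjusted p = 4.56e-05), from 1.44 in leg and −0.37 in EOM (adjusted p = 0.113), and 1.71 ± 0.38 on 22 (adjusted p = 0.132). Summed over the 36 measured genes of the macrophage list, none of them at 0, intensity was 18447 to 44911 in Balb leg, 40964 to 76147 in SJL leg, 36606 to 51892 in Balb EOM and 34539 to 55158 in SJL EOM. The leg groups overlapped through the first 10-month Balb replicate alone; on the 18 arrays they were 18447 to 29876 and 40964 to 52163.

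Lgals3, galectin-3, a lectin abundant in activated macrophages, had the largest interaction of the 4. Balb leg read 170.1, 425 and 764 and SJL leg 953, 1394 and 1484, without overlap, while Balb EOM read 601, 188, 335, 711 and 1347 and SJL EOM 199, 333, 351, 555 and 520.2. The interaction was 2.03 ± 0.39 on 18 arrays (limma adjusted p = 0.0113), from 1.82 in leg and −0.21 in EOM (interval −0.83 to 0.40). It was 2.16 ± 0.48 on 22 (adjusted p = 0.132). For Ctss, the cysteine protease cathepsin S of antigen-presenting cells, SJL was higher in both muscles on 18 arrays, by 2.08 in leg and 0.74 in EOM, with an interaction of 1.34. The class II genes H2-Aa and H2-Eb1, which present peptides to helper T cells, rose in both muscles on 18 arrays, by 2.18 and 1.42 in leg and by 0.58 and 0.53 in EOM; their interactions, 1.60 and 0.89, were the 2 that passed among 18 antigen presentation genes (1.04% of all probe sets passed as positive). Of 19 interferon-response genes, 5 were higher and 1 lower in SJL leg on 18 arrays (background 4.07% and 4.11%). In SJL EOM 1 was higher (3.75%) and none lower (4.51%). Their interaction passed for none on either set, with 2 at an unadjusted p under 0.05 on 22 arrays. Its median was 0.43 on 22 arrays and 0.40 on 18. Of 11 tested lymphocyte genes 1 passed on 18 arrays, the immunoglobulin mu chain gene Ighm, by 1.28. The complement genes C1qc and Clu passed among 13, by 0.72 and 1.02. These counts of 1 of 11 and 2 of 13 stand beside the same 1.04%.

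The metal-binding metallothioneins Mt1 and Mt2 and a pair of other stress genes were higher in SJL leg, with interactions that passed on 18 arrays. Mt2 read 3133, 4528 and 20498 in Balb leg and 14450, 18209 and 21395 in SJL leg. The highest Balb value was the first 10-month replicate, and 1 of the 12-month Balb arrays also reached 12646. Balb EOM read 8672, 5324, 8622, 5378 and 7916 and SJL EOM 7399, 5680, 4448, 5302 and 6723, with no separation of the strains. On 18 arrays the interaction was 2.16 ± 0.44 (limma adjusted p = 0.0178), from 1.88 in leg and −0.28 in EOM; on 22 it was 1.80 (adjusted p = 0.632). Mt1 had an interaction of 1.39 on 18 arrays. Odc1, the first enzyme of polyamine synthesis, read 1217, 1670.2 and 2022 in Balb leg and 2833, 4932 and 5258 in SJL leg, without overlap. In EOM it read 1882, 1124, 809, 1296 and 855 in Balb and 1511, 1218, 1237, 1401 and 1418 in SJL. The Odc1 interaction was 1.04 ± 0.19 on 18 arrays (adjusted p = 0.00836). Gadd45a, a growth-arrest gene that atrophying muscle raises, read 725, 1664 and 2183 in Balb leg and 2668, 3990 and 5306 in SJL leg, with an interaction of 1.41 from 1.57 in leg and 0.16 in EOM. Of the 13 atrophy, stress and metallothionein genes tested, 4 passed as positive and 1, Ddit3, as negative on 18 arrays (background 1.04% and 0.759%). In leg 4 of the 13 were higher in SJL and 3 (Ddit4, Mstn and Fkbp5) lower on 18 arrays, where the leg background was 4.07% and 4.11%. The list's median interaction was −0.01 (0.11 on 22 arrays). Tmem176a, with an interaction of 2.06 on 18 arrays, was higher in SJL leg by 1.53 and had an EOM difference of −0.53.

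Some genes were lower in SJL leg on 18 arrays and, by the estimates, not lower in SJL EOM. Ap2b1, a subunit of the clathrin adaptor complex, was lower in SJL leg, with a difference of −1.86 log2 units on 18 arrays (limma adjusted p = 0.00059) with an EOM difference of 0.18 (interval −0.50 to 0.86), and the interaction was −2.04 ± 0.43 (adjusted p = 0.0216). In leg it also passed on 22 arrays, by −1.42 (adjusted p = 0.0368). Dnmt1, the maintenance DNA methyltransferase, had an interaction of −1.58 on 18 arrays, from −1.23 in leg and 0.35 in EOM; its other tested probe set gave −0.24 and did not pass. For Aldh9a1, an aldehyde dehydrogenase of carnitine synthesis, the leg difference was −1.22 and the interaction −1.42 (adjusted p = 0.048). For Tbc1d24, a vesicle traffic protein, the leg difference was −1.14, the EOM difference, which did not pass, 0.90 and the interaction −2.04. The probe sets of Aldh9a1 and Tbc1d24 have an f suffix. None of these interactions passed on 22 arrays, and that of Ap2b1 ran from −2.90 to −0.21 under the alternative settings described at the end.

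In EOM alone, SJL was lower for epithelial and secretory genes. The other 6 probe sets of the 22-array test belong here: Krt6a and Krt4, keratins of stratified epithelium, Asprv1, a protease of cornified epithelium, and Pglyrp1, an antibacterial peptidoglycan-binding protein of neutrophil granules and epithelial secretions. Of 22 tested epithelial genes, 8 were lower in SJL EOM on 22 arrays (background 0.564%) and 12 on 18 (4.51%), and none passed in leg. The interaction passed for 3 on 22 arrays (background 0.092%) and, with Krt6b, Muc1 and Aldh3a1, for 6 on 18 (1.04%), all positive, with list medians of 1.18 and 1.24. At 10 months alone it passed for 0 on either set (background 0% and 0.552%), with list medians of 0.58 and 0.74. At 12 months it passed for 3 on 22 arrays (0.0575%) and 7 on 18 (0.828%), with a median of 1.99. The 12-month EOM groups held 2 arrays each. Summed over the 32 measured epithelial genes, none of them at 0, intensity was 33976 to 62272 in Balb EOM, 10235 to 26650 in SJL EOM, 9152 to 24176 in Balb leg and 8974 to 27701 in SJL leg. Balb EOM was therefore the group that stood apart, above all other arrays. How much non-muscle tissue each dissection held, and its part in these results, was not tested.

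For Krt6a the probe set with the larger intensities read 456, 1092 and 1773 in Balb leg and 487, 995 and 1982 in SJL leg. In Balb EOM it read 4191, 3945 and 2788 at 10 months and 6245 and 12701 at 12 months; in SJL EOM it read 2214, 1993 and 1459 at 10 months and 441 and 649 at 12 months. The strains did not overlap in EOM, and the 12-month arrays lay farthest apart. The difference was 0.07 in leg (interval −0.39 to 0.54) and −2.48 in EOM, with an interaction of 2.55 ± 0.33 (22 arrays; interval 1.86 to 3.25, limma adjusted p = 0.00392). The other Krt6a probe set, whose s suffix marks probes shared between transcripts, gave 3.11 ± 0.49. Krt4 read 2872, 3139, 2513, 2416 and 3757 in Balb EOM and 1974, 2697, 2207, 898 and 1144 in SJL EOM, where 1 of the 5 SJL values reached the Balb range; the interaction was 1.46 ± 0.24 (adjusted p = 0.0154) from 0.53 in leg and −0.94 in EOM. Asprv1 read 1813, 1714, 2189, 1785 and 3484 in Balb EOM and 1602, 1606, 1552, 395 and 576 in SJL EOM, without overlap, and its interaction was 1.79 ± 0.30 (adjusted p = 0.0154, and 0.0553 with arrays centred on their median).

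Pglyrp1 was the largest of these. Its first probe set read 53.7, 177 and 550 in Balb leg and 152, 184 and 819.5 in SJL leg. Balb EOM read 1552, 3663, 2948, 6265 and 9868 and SJL EOM 891, 835, 805, 268 and 492, without overlap. The difference was 0.58 in leg (interval −0.18 to 1.35) and −2.98 in EOM, and the interaction 3.56 ± 0.55 (22 arrays; interval 2.41 to 4.71, limma adjusted p = 0.0125); the other, with an f suffix, gave 3.995 ± 0.66. Plet1, a surface protein of epithelial progenitors, read 32 to 272 in Balb leg and 16 to 197 in SJL leg. It read 3014, 1690, 2317, 3367 and 7215 in Balb EOM and 966, 514, 149.8, 244 and 221.5 in SJL EOM. Its EOM groups did not overlap either, with an interaction of 3.04 ± 0.60 on 22 arrays (adjusted p = 0.0652) and 3.22 ± 0.60 on 18 (adjusted p = 0.00995).

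Some genes of mucosa and gland were also lower in SJL EOM on 18 arrays. Muc1, a membrane mucin, read 1643, 2469, 3733, 2503 and 3410 in Balb EOM and 378, 1661, 896, 699 and 565 in SJL EOM, with an interaction of 2.04 ± 0.38 (limma adjusted p = 0.00949). Bpifa2, a secretory protein of salivary and related glands, read 15600, 13114, 11707, 13674 and 11869 in Balb EOM, against 1057, 3486, 2848, 7576 and 4961 in SJL EOM. It was at 54.3 to 487 in Balb leg and 94.7 to 792 in SJL leg, below every EOM array; its interaction was 2.13 ± 0.40 on 18 arrays (adjusted p = 0.0104) and 2.20 on 22 (adjusted p = 0.16). Aldh3a1, an abundant enzyme of corneal epithelium, read 1284, 2100, 2031, 2889 and 8531 in Balb EOM and 966, 1420, 1310, 486 and 310 in SJL EOM, and Ltf, the iron-binding lactoferrin of secretions, 599.7, 837, 821, 869 and 1345 against 495, 261, 224, 417 and 408. Both passed on 18 arrays, with interactions of 1.98 and 2.09. The gland list as a whole did not follow Bpifa2. Of 5 orbital gland genes tested, 1 (Bpifa2) was lower and 1 (the amylase Amy1, by 1.08) higher in SJL EOM on 18 arrays. The background was 4.51% and 3.75%, and 3 of the 5 interactions were positive. Summed over 14 measured gland genes, intensity was 21454 to 48735 in Balb EOM and 11853 to 19786 in SJL EOM; without Bpifa2 the sums overlapped, at 9585 to 33135 and 7479 to 18729. Of 10 neutrophil genes tested, 2 (Pglyrp1 and Ltf) were lower in SJL EOM and none higher on 18 arrays (background 4.51% and 3.75%). On 22 arrays 1 of the neutrophil genes was lower (background 0.564%). Their list of 12 measured genes summed to 11544 to 18528 in Balb EOM and 3759 to 13580 in SJL EOM, and without that pair to 4399 to 16377 and 3074 to 12194, with medians of 8597 and 8745. Of 16 adipocyte genes, 6 were lower and 1 higher in SJL EOM on 18 arrays (background 4.51% and 3.75%), among them Fasn, the fatty acid synthase, by −0.76 and Lipe, hormone-sensitive lipase, by −0.81. On 22 arrays none of the adipocyte genes passed in EOM in limma, 8 having an unadjusted p under 0.05. Their part in the epithelial differences was not tested.

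The second EOM effect ran the other way: slow-fibre genes were higher in SJL EOM. On 18 arrays 9 of 15 slow-fibre genes were higher in SJL EOM and 1 lower (background 3.75% and 4.51%), and 2 each were higher and lower in leg (background 4.07% and 4.11%). The interaction passed for 7, all negative (background 0.759%): Myh7, Myl2, Myl3, Tnnc1, Tnni1, Fhl2 and Ankrd2. On 22 arrays 3 were higher in EOM (background 0.368%) and the interaction passed for none, with 6 at an unadjusted p under 0.05. The list's median interaction was −0.74 on 22 arrays and −0.80 on 18. Of 18 fast-fibre genes 1 passed on 18 arrays, the calcium pump Atp2a1 at 1.62, for which another probe set gave 0.46.

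Myl3, the ventricular and slow-fibre essential light chain of myosin, had the largest of these interactions. Its intensity was 7702, 26693 and 35364 in Balb leg and 4584, 27463 and 35476 in SJL leg, in overlapping ranges. Balb EOM read 169, 776, 469, 1137 and 808 and SJL EOM 609, 2582, 3148, 5055 and 5542. The strains overlapped through the first 10-month SJL replicate alone. On 18 arrays the difference was −0.00 in leg and 2.33 in EOM, with an interaction of −2.33 ± 0.21 (interval −2.77 to −1.89, limma adjusted p = 1.49e-05). On 22 arrays it was −2.36 ± 0.78 (adjusted p = 0.654): the value hardly moved, and its error was over 3 times as large.

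Tnnc1, the slow and cardiac troponin C that binds calcium, read 13450, 21358 and 30730 in Balb leg and 14990, 28479 and 46315 in SJL leg. Balb EOM read 895, 3943, 3331, 4421 and 5533 and SJL EOM 5810, 24596, 25832, 28228 and 31048, without overlap. The difference on 18 arrays was 0.49 in leg (limma adjusted p = 0.029) and 2.69 in EOM, the interaction −2.19 ± 0.20 (interval −2.61 to −1.77, adjusted p = 1.49e-05), and on 22 arrays −2.24 ± 0.60 (adjusted p = 0.324). Myl2, the slow regulatory light chain, read 5952, 7516, 5862, 8856 and 11053 in Balb EOM and 27144, 43983, 41175, 33851 and 30138 in SJL EOM, with an interaction of −2.002 on 18 arrays and −1.99 on 22. Myh7, the slow and cardiac myosin heavy chain, gave −1.94 on 18 arrays from a probe set with an f suffix; its other probe set, also f, gave 0.04. Tnni1, slow troponin I, gave −1.70 on 18 arrays and −1.66 on 22.

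For Myl2 and Myh7 the SJL EOM values lay within the range of leg, as did those of Tnnc1 other than the first 10-month replicate, and for all 5 slow-fibre genes the leg signal was a large share of the highest on the array. In Balb leg it was 21.1% to 57.4% of an array's highest intensity for Tnnc1, 28.9% to 68.2% for Myl3, 54.1% to 66.3% for Myl2, 26.8% to 71.7% for Tnni1 and 41.6% to 94.0% for Myh7. The room above it was 0.67 to 1.43 log2 units, less than the EOM differences of 2.01 to 2.69. A limit of the array's range in leg was not tested. That SJL EOM was above Balb EOM does not rest on the leg values. Summed over the 15 slow-fibre genes on 18 arrays, intensity was 138549 to 184545 in Balb EOM and 201757 to 372037 in SJL EOM; on all 22 the ranges overlapped, at 78370 to 184545 and 116290 to 372037.

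Muscle genes of the leg and of the EOM effect were read for known muscle control elements in the 250 bases before their RefSeq start (RefSeq, mouse GRCm38.p6). Actc1, Ankrd1 and Kcnab1 had positive interactions from leg, and Myl2, Myl3, Myh7, Tnnc1 and Tnni1 negative ones from EOM, so they are not 1 set. These bases are printed for 4 of the genes, on the gene's own strand 5′ to 3′: Actc1 and Ankrd1 for the leg effect, Myl3 and Tnnc1 for the EOM effect. Capitals mark matches to CATTCC on either strand (the core of the MCAT element bound by TEAD factors), to the CArG box bound by serum response factor, and to the MEF2 site.
Actc1, chr2:114052876-114053125, minus strand: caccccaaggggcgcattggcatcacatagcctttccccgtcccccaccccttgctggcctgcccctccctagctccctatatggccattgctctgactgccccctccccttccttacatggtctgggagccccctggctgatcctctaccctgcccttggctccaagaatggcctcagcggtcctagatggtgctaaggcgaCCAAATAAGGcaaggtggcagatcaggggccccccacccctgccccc
Ankrd1, chr19:36119845-36120094, minus strand: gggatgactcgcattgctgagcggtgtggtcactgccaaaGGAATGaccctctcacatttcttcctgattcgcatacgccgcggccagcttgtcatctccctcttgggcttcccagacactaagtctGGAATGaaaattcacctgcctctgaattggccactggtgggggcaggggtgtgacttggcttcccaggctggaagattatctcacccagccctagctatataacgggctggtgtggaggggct
Myl3, chr9:110763428-110763677, plus strand: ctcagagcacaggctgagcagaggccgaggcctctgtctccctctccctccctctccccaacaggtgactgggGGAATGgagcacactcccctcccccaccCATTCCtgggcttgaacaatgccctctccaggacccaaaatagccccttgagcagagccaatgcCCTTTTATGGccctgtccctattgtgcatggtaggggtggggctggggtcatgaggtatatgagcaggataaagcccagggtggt
Tnnc1, chr14:31208062-31208311, plus strand: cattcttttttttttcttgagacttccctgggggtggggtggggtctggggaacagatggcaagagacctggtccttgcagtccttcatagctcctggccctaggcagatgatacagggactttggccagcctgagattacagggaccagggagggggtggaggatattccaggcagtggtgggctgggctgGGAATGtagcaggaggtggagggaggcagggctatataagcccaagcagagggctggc
The CArG box of Actc1 lay 47 to 38 bases before the start and that of Myl3 85 to 76. Of the 8 muscle genes read (Actc1, Ankrd1, Myl2, Myl3, Myh7, Tnnc1, Tnni1 and Kcnab1), CATTCC was present in 4 and the CArG box in 2, against 12.6% and 1.47% of 32851 promoters of that length. CAGCTG, an E-box of the myogenic factors, was in 2 (13% of promoters) and the MEF2 site in 0 (0.508%). A gene was counted when any of its RefSeq entries matched, while the percentages count single promoters. Kcnab1 had 3 entries, and Myl2, Myh7 and Tnni1 had 2 each, so the counts and percentages are not like measures. A match describes letters only.

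In the class that passed in both muscles in opposite directions, the strain effect changed sign. Npnt, the matrix protein nephronectin, was lower in SJL leg by −0.91 and higher in SJL EOM by 1.26 on 18 arrays, with an interaction of −2.17 ± 0.34 (limma adjusted p = 0.00337). Its EOM values were 92.6, 98.8, 112, 298 and 462 in Balb and 153, 564, 321, 467 and 745 in SJL, overlapping across ages and separate within each age. For Ctse, the aspartic protease cathepsin E, 1 probe set gave −2.19 (adjusted p = 0.000865), but its other tested probe sets gave 2.58 and −0.47 without passing, so the probe sets disagree and no direction is given for the gene. Ctsd, the lysosomal protease cathepsin D, gave 1.05, from 0.42 and −0.63.

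The interactions were also read at each age. Age and any batch that went with it cannot be told apart. On 18 arrays 48 probe sets passed at 10 months (0.552%) and 72 at 12 months (0.828%). Of the 156 that passed over both ages, 153 had the same sign at each, a count taken from the values that made them pass. On 22 arrays limma found 0 at 10 months, where 278 (3.2%) had an unadjusted p under 0.05, and 5 at 12 months (0.0575%). The change of the interaction between ages passed for 0 probe sets on either set; 171 (1.97%) and 783 (9.01%) had an unadjusted p under 0.05. On 18 arrays Actc1 gave 3.35 and 3.04 at 10 and 12 months, Myl3 −2.31 and −2.35, Myl2 −2.41 and −1.59, and Kcnab1 1.89 and 3.73. For Krt6a, Aldh3a1 and Pglyrp1 the value at 12 months was the larger: the first Krt6a probe set read 0.99 at 10 months (interval −0.07 to 2.06) and 4.08 at 12 months (interval 3.11 to 5.05), Aldh3a1 0.17 and 3.80, and the first Pglyrp1 probe set on 22 arrays 2.28 and 5.16. The age difference for Krt6a, 3.09, had an adjusted p of 0.148, so no change with age was established.

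**Figure D3:**
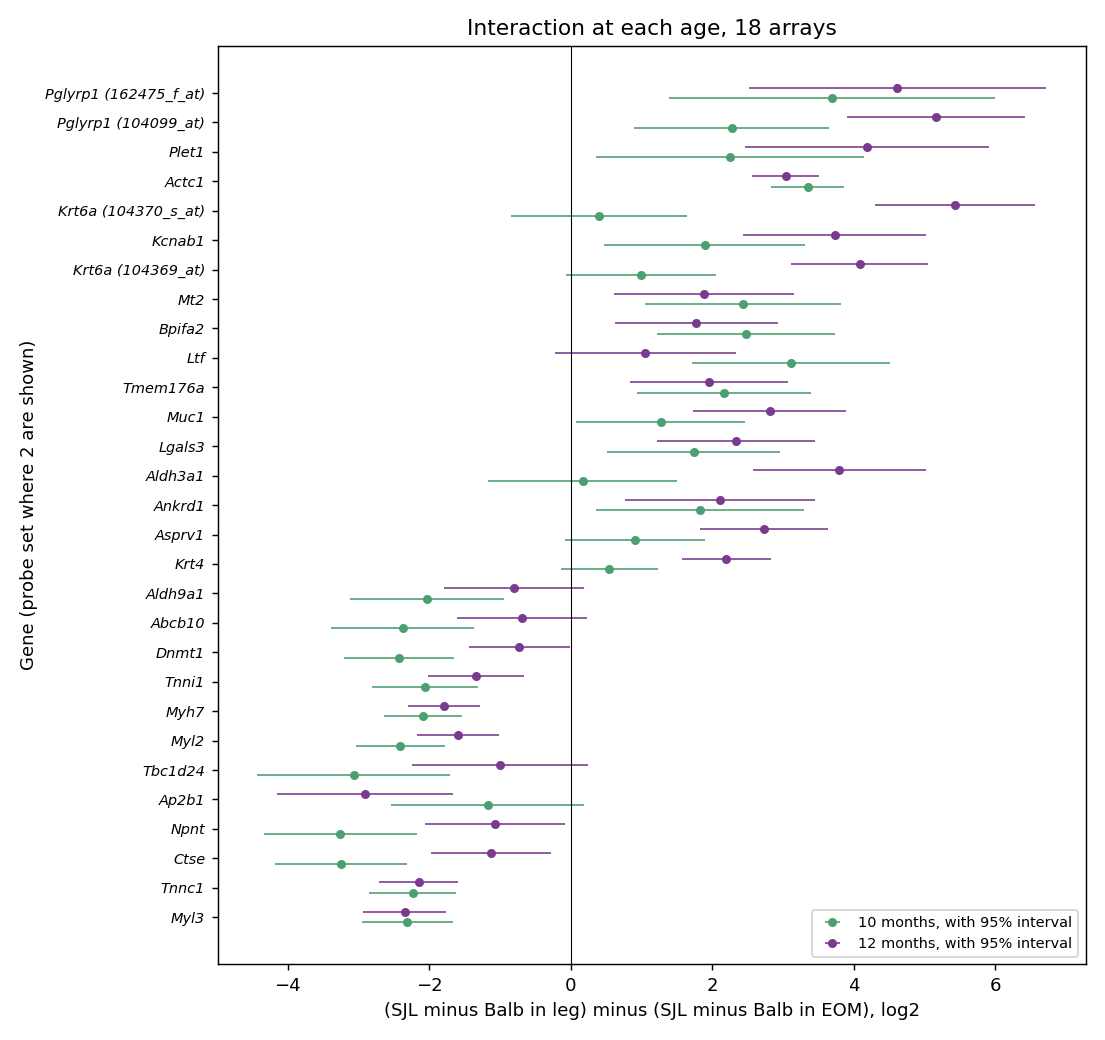
Interaction in log2 units at 10 and at 12 months with 95% intervals, on 18 arrays, for the 29 probe sets described most closely. Actc1 and Myl3 lie at nearly the same value at both ages, and Krt6a and Aldh3a1 lie higher at 12 months.

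The strain differences shared by both muscles give the other side of the comparison. On 22 arrays 41 probe sets passed in leg and in EOM in one direction, 18 higher and 23 lower in SJL, and none in opposite directions. Their interactions ran from −1.13 to 1.24 with a median of −0.03, and none passed in limma, 4 having an unadjusted p under 0.05; 1, a probe set of slow troponin T (Tnnt1), passed on 18 arrays. The interval of the interaction lay within 1 log2 unit of 0 for 18 of the 41 on 22 arrays and for 22 on 18, so equal effects were shown to that margin for part of them.

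Phkg1, the catalytic subunit of muscle phosphorylase kinase, had the largest shared difference. Balb leg read 78.7, 173 and 336 and SJL leg 5746, 11860 and 15295, while Balb EOM read 298.5, 233, 157, 124 and 60.5 and SJL EOM 2426, 5573, 5904, 6893 and 5400. No value of one strain overlapped the other in either muscle. The differences were 5.84 in leg and 5.03 in EOM, with an interaction of 0.80 (22 arrays; interval −0.01 to 1.61). Mgst1, a microsomal glutathione transferase, was lower in SJL by −2.66 in leg and −2.70 in EOM, and its interaction of −0.04 on 18 arrays had an interval of −0.39 to 0.31. H2-Ea, the class II alpha chain, was lower by −2.78 and −4.02; the H2 haplotype of SJL is known for lacking it. One Pdxdc1 probe set was lower by −5.27 and −4.57 while 2 others of that gene were higher in both muscles, so its probe sets disagree. Pla2g12a, a secreted phospholipase, Rgs5, a G-protein regulator of pericytes, and Clip4 had interactions of −0.25, −0.66 and −0.42, none passing. For Rgs5 another probe set gave −0.75 in leg and −0.05 in EOM, and passed in neither.

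Cd55, decay-accelerating factor, a membrane inhibitor of complement, was lower in both muscles. Balb leg read 835, 1119 and 2015 and SJL leg 219, 254 and 407. Balb EOM read 739, 464, 576, 829.5 and 665 and SJL EOM 246, 258, 137, 394 and 366. The strains did not overlap in either muscle. The difference was −2.02 in leg and −1.18 in EOM (limma adjusted p = 0.0557 on 22 arrays and 0.00785 on 18), and the interaction was −0.84 (interval −1.63 to −0.04, adjusted p = 1). A leg effect sparing the eye was therefore not shown for Cd55.

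**Figure D4:**
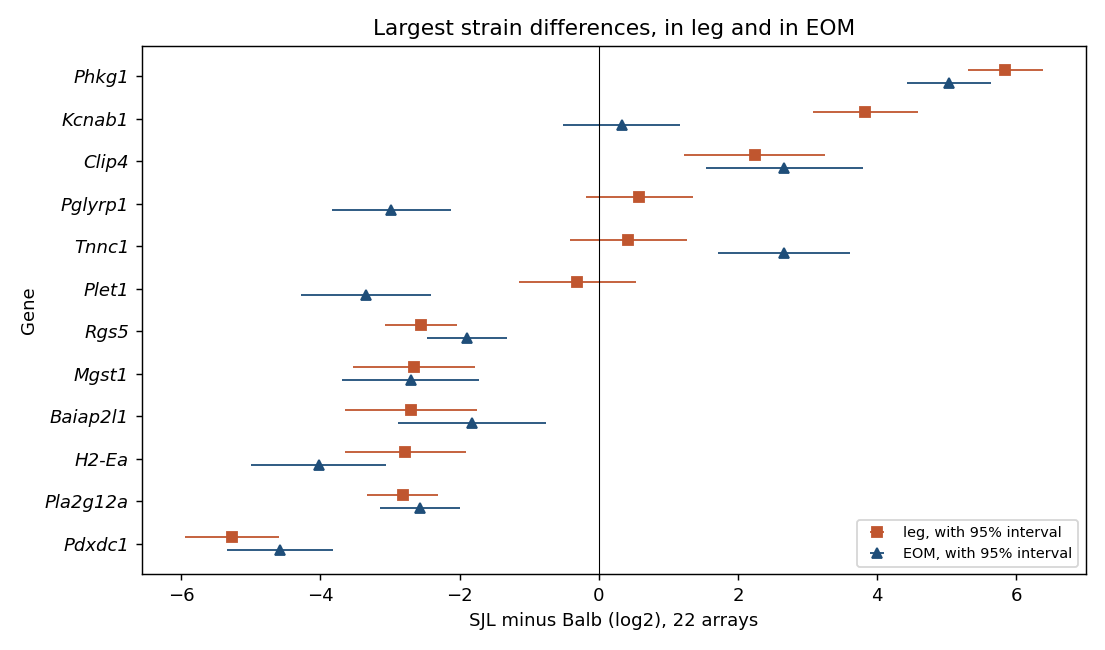
SJL minus Balb difference in leg and in EOM, log2 units with 95% intervals on 22 arrays, for the genes with the largest passing strain differences. The intervals of the 2 muscles lie on the same side of 0 for Phkg1, H2-Ea, Mgst1 and Rgs5.

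Across the 26 gene lists described, the medians of the interaction ran from −0.74 to 1.18 on 22 arrays, beside −0.00 over all 6454 genes. Epithelium (1.18 on 22 arrays), macrophages (0.74) and slow fibres (−0.74) lay farthest out. Next came orbital glands (0.57), neutrophils (0.44), interferon response (0.43), adipocytes (0.40), complement (0.40) and antigen presentation (0.36). The 19 dysferlin and sarcolemma genes had a median of −0.04 (0.01 on 18 arrays), and 1 passed on 18 arrays, the dysferlin-binding annexin Anxa2 at 1.10. Extracellular matrix genes (43 tested, median 0.25) had 1 passing on 18 arrays, Timp3, as negative; adipocyte genes (16, median 0.40) had 1, Fasn, as positive; lysosomal genes (21, median 0.24) had Ctsd and Ctsl as positive. Genes of oxidative phosphorylation (30, median −0.10), fatty acid oxidation (17, median −0.21) and glycogen and glycolysis (21, median 0.07, and −0.03 with arrays centred on their median) had 0 passing on either set. The same held for endothelium (18, median −0.19) and immediate early response (21, median 0.11). On 18 arrays 62 of all 6454 genes passed as positive and 59 as negative, so 0 in lists of this size lies near that share. At an unadjusted p under 0.05 on 18 arrays were 6, 6, 7, 3 and 3 genes of these lists in turn, against 977 of all 6454. On 22 arrays the unadjusted count over all genes was 303. No list was tested as a set.

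**Figure D5:**
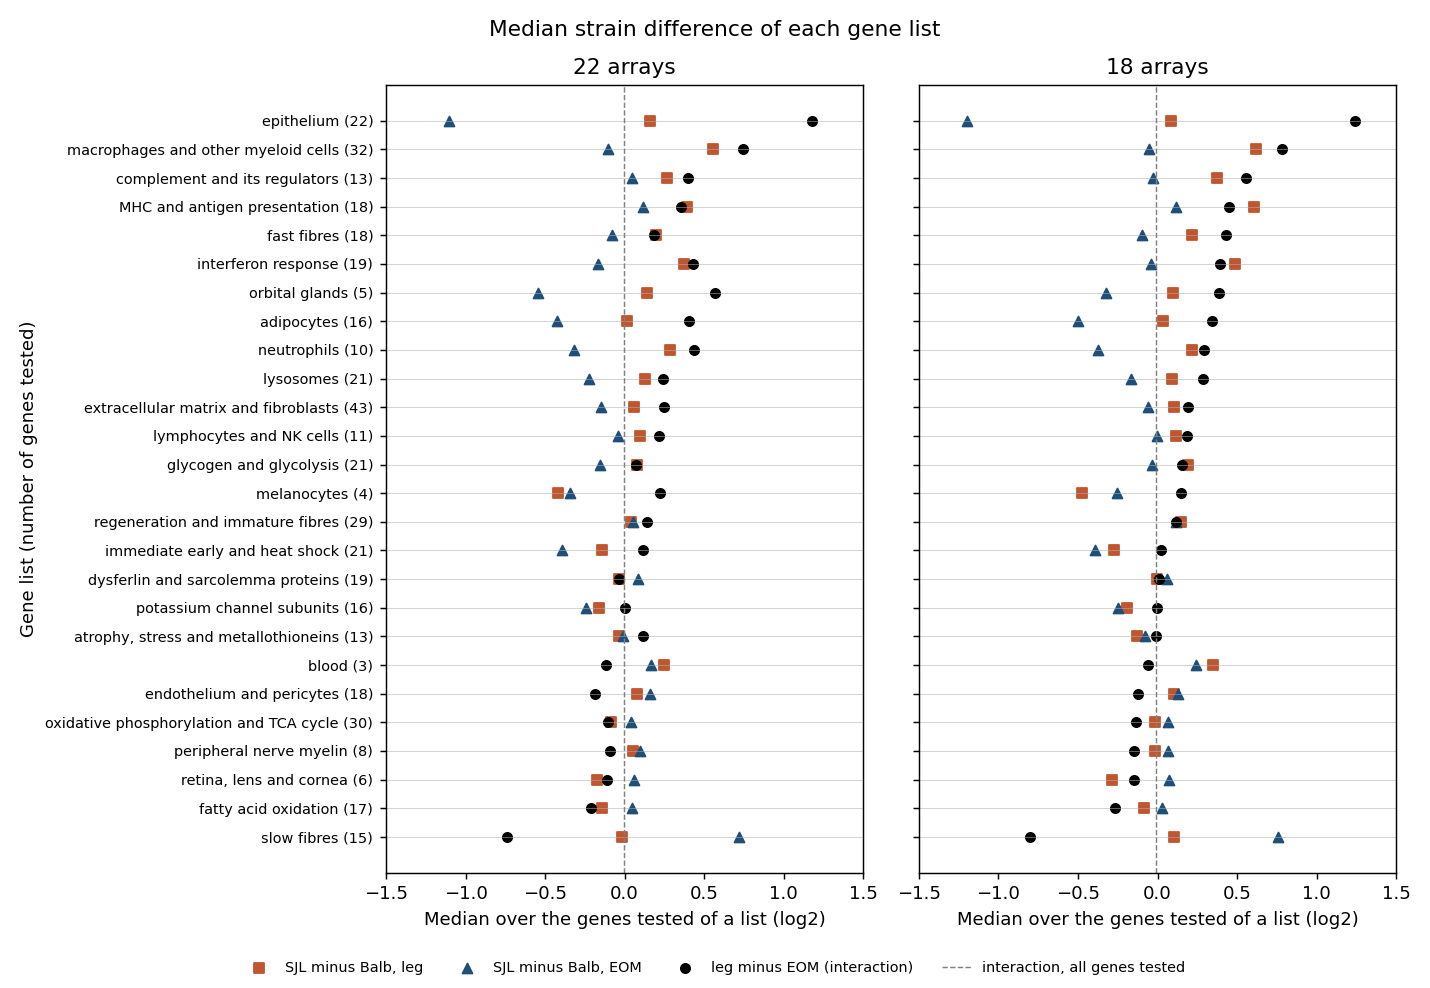
Median over each of 26 gene lists of the strain difference in leg (squares) and in EOM (triangles) and of the interaction (dots), log2 units, on 22 and 18 arrays; dashed lines mark the median over all 6454 genes. Epithelium has the lowest EOM median and the highest interaction, and slow fibres the lowest interaction.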

How the data were processed

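The data are 22 arrays of mouse leg and extraocular muscle RNA. Values are the intensities the authors deposited, 1 per probe set; per the labels the arrays are Affymetrix ones, and the summarization software is not given in the sources used here. The 2% trimmed mean of each deposited array lay between 1500.77 and 1501.08, so no further scaling was applied. Values were taken as log2(intensity + 16), computed here from the deposited intensities; differences of dim probe sets are understated on that scale. Of 12488 probe sets, 66 controls and the 30% with the lowest mean were left out, leaving 8695. Genes were named from the platform annotation, with symbols updated through RefSeq: 10833 probe sets have 1 symbol, 396 several and 1193 none; 10817 gene identifiers were found in RefSeq.

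A mean was fitted for each of 8 groups with limma 3.58.1 in R 4.3.3 (eBayes with a variance trend, 2-sided, Benjamini-Hochberg over all 8695), averaging the ages equally, on 22 and on 18 arrays; residual degrees of freedom were 14 and 10. The procedure was tested on simulated data. The number of arrays limits the precision.

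The comparison, members and gene lists were chosen with earlier results of these data known. Genes named are the probe sets passing on 22 arrays, the 12 largest interactions of each sign on 18 with one sign at both ages, up to 3 per list with the smallest p, the 8 largest strain differences in each muscle, and Cd55. List members named for passing, probe sets that disagree, and the remaining genes described were chosen after their values were seen, as was the comparison with each array's highest intensity. In lists a gene is its probe set of highest mean. Plots used Python 3.11.15 and its library matplotlib 3.10.9.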

Additional observations from a re-analysis of the deposited data

Results flagged for a closer look

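The interaction test itself marks 8 probe sets whose strain effect differed between leg and EOM on 22 arrays (limma, two-sided, Benjamini-Hochberg adjusted p). Those that rest on leg are the first Actc1 probe set, with an interaction of 3.08 (adjusted p = 0.0154), and Kcnab1, with 3.50 (adjusted p = 0.0125). Those that rest on EOM are the first Krt6a probe set with 2.55 (adjusted p = 0.00392), its second with 3.11 (adjusted p = 0.0147), Krt4 with 1.46 (adjusted p = 0.0154), Asprv1 with 1.79 (adjusted p = 0.0154), the first Pglyrp1 probe set with 3.56 (adjusted p = 0.0125) and its second with 3.995 (adjusted p = 0.0154). All 8 were positive at both ages. The groups hold 2 or 3 arrays, too few to test single arrays as outliers.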

How the results depend on the processing

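The number of probe sets passing depended on which arrays entered. Without the 4 first replicates at 10 months it was 156 in place of 8 for the interaction, 711 in place of 123 in leg and 718 in place of 81 in EOM; with array weights it was 114, 457 and 551. On the 10-month arrays alone it was 0 (147 at an unadjusted p under 0.05), 8 and 3, and on the 12-month arrays alone 56, 518 and 262. For the 18-array interaction (156) it was 99 with no variance trend, 9 on the 10-month arrays and 56 on the 12-month arrays. The change between ages, 0 in the main test, was 1 with array weights. Leaving out each replicate in turn gave 1 to 14 for the interaction, 86 to 147 in leg, 47 to 102 in EOM, 0 to 1 for the change between ages and 91 to 219 for the 18-array interaction. The lowest came without Balb EOM replicate 2 or SJL EOM replicate 1 at 12 months for the interaction, and the highest without SJL leg replicate 1 at 10 months. A 12-month EOM group then holds 1 array, whose spread is assumed to be that of the other groups.

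With the replicate number as a block 34 probe sets passed the interaction, 333 the leg and 212 the EOM difference. Deviations of same-numbered samples correlated at 10 months (18 pairs, r from 0.26 to 0.774) and not at 12 months (12 pairs, r from −0.081 to 0.039), so the numbers were not taken as pairing.

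Centring arrays on their median moved the median interaction of all probe sets from 0.01 to −0.09 and that of the EOM difference from −0.04 to 0.07. Without the 4 arrays, with that centring or with quantile normalization, 7 of 78 list medians changed sign, in the stress, sarcolemma, glycogen and potassium channel lists, whose main medians were at most 0.114 in size. For the 29 probe sets described most closely, 0 of 998 interactions under alternatives reversed, 25 lost and 66 gained a passing adjusted p. These probe sets were chosen by passing, or by size with one sign at both ages, on the same arrays. Most alternatives share most arrays with the main test, so the lack of reversals was largely built in. Only the 8 that passed on 22 arrays could lose a pass. Leaving out probe sets above 20000 gave no value for 7 of the 29: Actc1, Mt2, Myh7, Myl2, Myl3, Tnnc1 and Tnni1. Dim probe sets have less precision, and bright ones little room above them.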
